A study of Mus musculus with 18 samples.

Results

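Lipochondrocytes are cartilage cells that hold lipid, found in the ear of the mouse among other sites. The comparison described here sets 3 RNA sequencing libraries of lipochondrocytes from postnatal day 13 (P13) against 3 libraries from postnatal day 10 (P10), out of 18 libraries in 6 groups. All genes with at least 1 FPKM (a fragment count scaled for gene length and sequencing depth) in at least 3 of these 6 libraries were taken, which gave 9879 of the 46983 genes in the table. Both groups came from the cartilage plate of the ear of C57BL/6 mice carrying Wnt1-Cre2;TdTomato, in which Wnt1-driven Cre recombinase switches on a red fluorescent protein in cells of the neural crest lineage. Cells were released with collagenase and sorted for high TdTomato. The gate selects a lineage and not a cell type, so other descendants of the neural crest can be in it. The 3 libraries of day 8 (P8) were made the same way and are given beside them.

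A lipid-storing cell makes fatty acids from acetyl-CoA, introduces double bonds with desaturases, and joins fatty acids to glycerol to form triglyceride. Triglyceride is kept in droplets coated by perilipins and proteins of the CIDE family, and it is released again by lipases whose activity is held down by inhibitors. In fat cells this programme is under the control of the nuclear receptor PPAR-gamma, of C/EBP factors and of SREBP1. Chondrocytes of elastic cartilage also secrete type II collagen, aggrecan and elastic fibres.

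The stretches of DNA in front of 4 genes of the lipid lists are shown as examples. Mogat1 and G0s2 had the largest rises of these lists, while Plin2 encodes a coat protein of the droplet and Fasn the fatty acid synthase. The stretches are the 250 bases before the start of the gene in RefSeq (GRCm38.p6), 5′ to 3′ on the strand of the gene. No such window was available for Scd1, Dgat2 and Cidea, which rose more than Fasn. The GENCODE models used for gene coordinates start earlier for Mogat1 and G0s2, so that the end of these windows lies inside those models. Capitals mark the CCAAT box, searched as CCAAT on both strands, so that it appears as ATTGG where it lies on the other strand. A match on the other strand that overlaps a marked one, as at the second box of Fasn, is not marked or counted again.
Mogat1, chr1:78510810-78511059, plus strand: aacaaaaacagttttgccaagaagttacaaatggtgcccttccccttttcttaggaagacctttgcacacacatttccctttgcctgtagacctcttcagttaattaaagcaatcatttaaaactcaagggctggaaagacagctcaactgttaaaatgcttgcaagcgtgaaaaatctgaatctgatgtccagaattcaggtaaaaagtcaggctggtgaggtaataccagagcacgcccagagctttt
G0s2, chr1:193273189-193273438, minus strand: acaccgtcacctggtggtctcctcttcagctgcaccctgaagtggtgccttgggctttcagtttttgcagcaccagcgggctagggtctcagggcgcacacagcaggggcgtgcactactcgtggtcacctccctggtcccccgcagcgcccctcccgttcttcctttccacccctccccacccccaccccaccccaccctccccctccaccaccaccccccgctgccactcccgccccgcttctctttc
Plin2, chr4:86670060-86670309, minus strand: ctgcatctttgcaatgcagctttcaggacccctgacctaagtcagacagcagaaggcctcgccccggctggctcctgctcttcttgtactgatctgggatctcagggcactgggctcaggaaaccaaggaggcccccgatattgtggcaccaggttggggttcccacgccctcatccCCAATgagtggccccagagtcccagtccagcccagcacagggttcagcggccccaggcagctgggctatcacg
Fasn, chr11:120824548-120824797, minus strand: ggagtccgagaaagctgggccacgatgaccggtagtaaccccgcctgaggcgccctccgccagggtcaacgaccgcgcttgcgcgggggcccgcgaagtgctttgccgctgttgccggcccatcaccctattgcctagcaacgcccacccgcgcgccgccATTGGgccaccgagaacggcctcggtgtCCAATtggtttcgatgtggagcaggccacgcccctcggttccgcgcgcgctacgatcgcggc
The Fasn stretch held 2 CCAAT boxes and the Plin2 stretch 1, while none of these letters stood in those of Mogat1 and G0s2. A CCAAT box was held by 33.85% of all 32851 such windows from RefSeq. The share of windows was 37.33% for genes higher at P13, 32.4% for genes lower and 35.3% for all genes tested. A gene can have several windows, and the counts that follow are of genes with the box in any window. Such counts are not the same measure as these shares. Windows were available for 6 of the 9 fatty acid synthesis genes that rose, and 5 of these 6 genes had the box. Of the 4 triglyceride synthesis genes that rose 2 had a window, and 0 of them the box. Among droplet coat genes that rose and had a window 2 of 3 had the box, among lipolysis genes 0 of 3 and among fatty acid oxidation genes 3 of 7.

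Library scaling decided the balance of the comparison. The 6 libraries held 14424865 to 27640142 reads with alignment rates of 81.89% to 84.15%, and the same gene, 1520401A03Rik, was the highest in each. In the FPKM as deposited, the median gene was 0.226 higher at P13 on the log2(FPKM + 1) scale. Each library was therefore divided by its median ratio to the 9 sorted libraries, by 0.8287 to 0.9447 at P10 and 0.9996 to 1.099 at P13, after which the median difference was 0.014. That small median follows from the scaling itself, which takes the typical gene as unchanged between stages. Whether the typical gene was unchanged was not tested. Levels below are these scaled FPKM, and differences are P13 minus P10 on the log2(scaled FPKM + 1) scale with their standard error (SE), which understates the change of genes near 1. With scaling, 2240 genes (22.7%) passed an adjusted p of 0.05 in limma, 1120 higher (11.3%) and 1120 lower (11.3%) at P13. Counts called in the gene lists below are to be read beside these shares. As deposited, 3016 (30.5%) passed, 2438 higher (24.7%) and 578 lower (5.85%). All 1120 rises and 578 of the falls were called in both, and 0 genes were called in opposite directions. The labels do not say that the libraries came from separate animals, so p-values measure the spread between these libraries. The values of P13 lay above all those of P10 in 22.6% of the genes tested and below them in 22.4%. In the same fit 772 genes (7.81%) differed between P13 and P8, 490 higher (4.96%) and 282 lower (2.85%), and 612 (6.19%) between P10 and P8, 481 higher (4.87%) and 131 lower (1.33%). These 3 comparisons share libraries. Of the rises from P10 to P13, 153 were of at least 1 and 33 of at least 2 on the log2 scale, and of the falls 371 and 53. There were 230 genes that passed the FPKM minimum only through P13, of which 106 were called higher, and 100 that passed only through P10, of which 87 were called lower. Among genes named below, Notum, Htra4, Eno1b, BC002163 and AL589742.2 passed only through P13. Fosl1, Cish, P4ha3, Hist1h2ad and BX813336.1 passed only through P10. Such genes entered the test through the stage where they were high, so their calls are not independent of the filter. Below, a call is said to have held where it was also made without each of the 6 libraries in turn and with the deposited values. Of the 1120 rises 549 held, and of the 1120 falls 502. Leaving out libraries alone kept 549 rises (49%) and 629 falls (56.2%). The deposited values, whose median gene was higher at P13, removed falls but no rise. Held counts of rises and of falls are therefore not on the same footing.

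**Figure D1:**
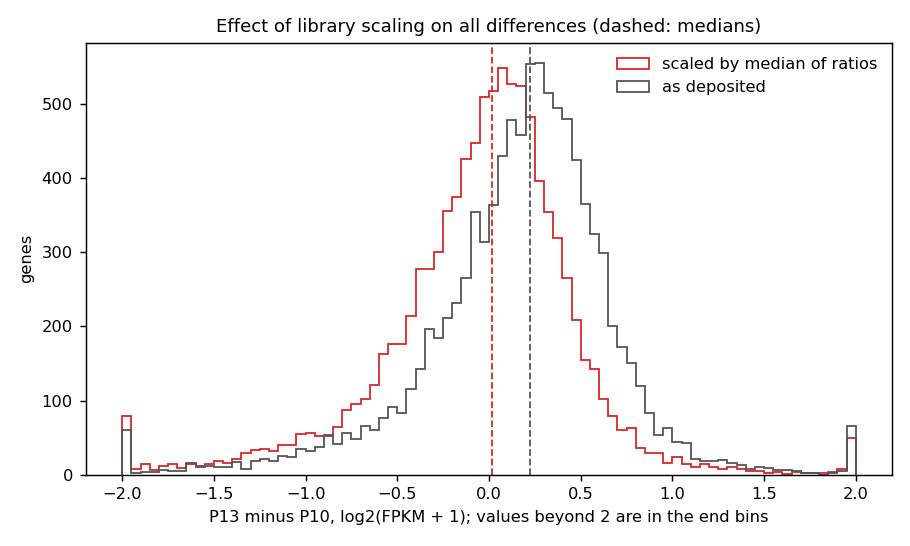
Histograms of P13 minus P10 on the log2(FPKM + 1) scale for the 9879 genes, scaled by the median of ratios (red) and as deposited (grey), with the number of genes on the vertical axis and dashed lines at the medians of 0.014 and 0.226. Values beyond 2 are collected in the end bins, and the deposited distribution is shifted to the right of the scaled one.

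**Figure D2:**
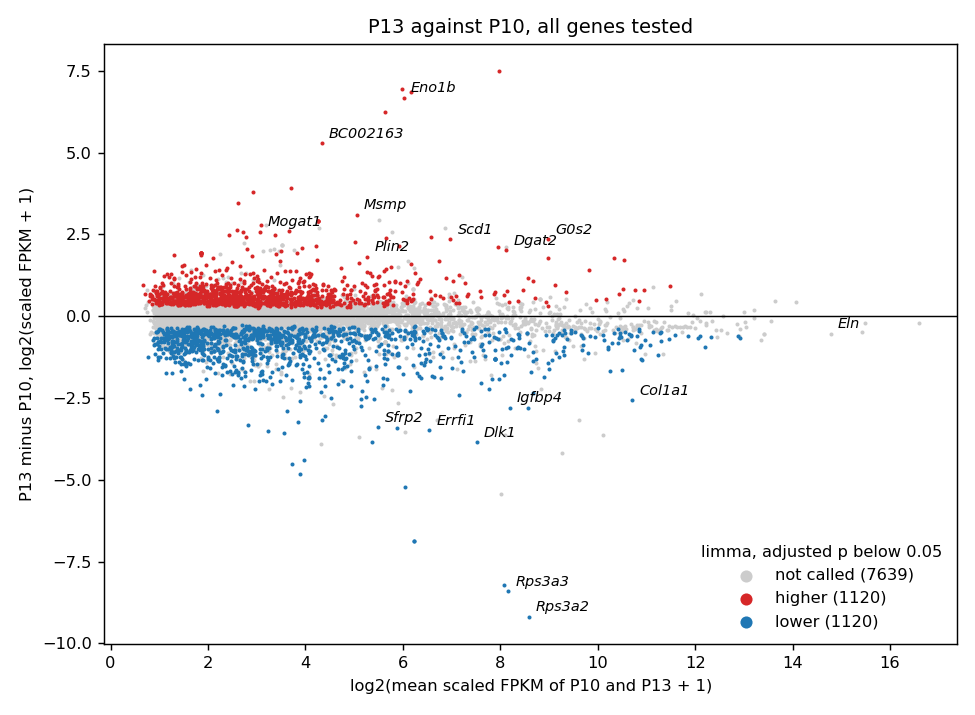
P13 minus P10 on the log2(scaled FPKM + 1) scale against the log2 of the mean level plus 1, with 1 point per gene: 1120 called higher (red), 1120 lower (blue) and 7639 not called (grey). The most extreme points include near-identical gene copies such as Eno1b, BC002163, Rps3a2 and Rps3a3.

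The labelled cell type was checked against its defining markers, most of which were present and 1 of which was low. The cartilage gene Cytl1 lay at 10235 to 11372 scaled FPKM at P10 and 12956 to 16344 at P13, and Lect1 (chondromodulin) at 3761 to 3949 and 3746 to 4163. Col2a1, type II collagen, was at 3704 to 6949, whereas the cartilage matrilin Matn1 was at 0.159 to 0.398 in all 6. The fat cell genes Lep and Cfd were listed at 0 in all 6 libraries, and so was Cidec, while Adipoq was at 0.15 in 1 P13 library and listed at 0 in the other 5. Of the other fat cell markers, Plin1 stayed below the FPKM minimum, and Fabp4 was at 0.647 to 1.33 at P10 and 1.45 to 2.03 at P13. Markers of keratinocytes, lymphocytes, melanocytes and neurons had 0 members at the FPKM minimum, and Krt5 and Krt14, Cd3e, and Dct were at 0.275, 0 and 0.0423 or below.

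Markers of fibroblasts and perichondrium, the fibrous sheath around cartilage, fell, with the largest median difference of the cell-type lists. Of 21 tested 20 were lower at P13 and 0 higher, with a median difference of -1.70 beside 0.014 for all genes (15 lower as deposited), and 15 of the 20 held. Their summed level was 6074 to 7076 at P8, 11580 to 13981 at P10 and 4478 to 5270 at P13, and 0 of the 24 listed genes were at 0 in a whole group. Postn, a matrix protein of fibrous tissue, stood at 673, 662 and 661 at P10 and 81.3, 102 and 103 at P13 (-2.80, SE 0.12, adjusted p = 1.97e-06). Col1a1, type I collagen, stood at 3249, 2262 and 3089 and then at 426, 487 and 529 (-2.56, SE 0.19, adjusted p = 4.47e-05). The P13 values of both genes lay below every P10 value, and the P8 values, 239 to 280 for Postn and 1158 to 1703 for Col1a1, lay between. Clec3b (tetranectin), Dpt (dermatopontin), Ly6a and Cd34 were at 59.6 to 79.6, 56 to 63.1, 21.7 to 25.6 and 23.4 to 29.3 at P10. At P13 they were at 9.61 to 13.7, 9.63 to 12.6, 5.63 to 7.24 and 5.78 to 6.37, and at P8 at 9.44 to 13.1, 5.63 to 9.51, 3.26 to 4.25 and 7.2 to 8.63. Pdgfra, a receptor of fibroblasts, was low at both stages (-0.39, adjusted p = 0.0465), a call that did not hold. In bulk RNA, fewer cells of a type and less RNA per cell cannot be told apart. Many genes of other groups that fell were, like these markers, highest at P10. Others were highest at P8: Tgfbi was at 128 to 142 at P8 and 115 to 127 at P10, and Ccnd1 at 19.8 to 26.5 and 13 to 17. The part of the markers in any of these results was not tested.

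The other cell-type markers had lower sums. Macrophage markers summed to 6.89 to 8.78 at P10 and 3.64 to 4.73 at P13, with 1 of 2 tested members lower (C1qb), which did not hold. Schwann cell markers summed to 547 to 590 and 405 to 479, of which Pmp22 made up the most, and of 3 tested 2 were lower and 1 higher, all of which held. S100b, expressed by chondrocytes as well as Schwann cells, rose, from 64.9 to 81 at P10 to 161 to 168 at P13 (1.18). Skeletal muscle genes summed to 24.1 to 30.6 and 27 to 43.5 with 0 of 6 called, endothelial genes to 11.4 to 14.5 and 10.5 to 12.1 with Eng lower, and erythroid genes to 4.5 to 6.02 and 4.35 to 7.86 with 0 of 2 called. Of 5 smooth muscle and pericyte genes 2 fell, Pdgfrb and Mcam, and neither held. The 1 sebocyte gene tested, Soat1, was not called, and the listed wax synthase Awat2 was at 0.201 or below in each library.

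Of the 20 fatty acid synthesis genes tested 9 were higher at P13 and 0 lower, with a median of 0.29 (15 higher and 0 lower as deposited), and 7 of the 9 held. Scd1, the stearoyl-CoA desaturase that makes oleate, stood at 42.5, 39.0 and 39.4 scaled FPKM in the P10 libraries and at 201, 219 and 208 at P13 (2.35, SE 0.11, adjusted p = 3.63e-06). Every P13 library lay far above every P10 library, and the P8 libraries, at 26.1 to 33.4, lay below both. Fasn, the fatty acid synthase, stood at 17.7, 15.4 and 14.8 and then at 27.7, 27.8 and 23.9 (0.69, SE 0.14, adjusted p = 0.00812). Acss2, which makes acetyl-CoA from acetate, went from 2.04 to 2.46 up to 4.32 to 5.14 (0.77), and Slc25a1, which exports citrate from mitochondria for that purpose, from 20.6 to 21.8 up to 32.3 to 36.4 (0.66). Fads2, a front-end desaturase, rose by 0.66, Acsl3, which activates fatty acids, by 0.54 and the elongation enzyme Tecr by 0.50. The groups did not overlap for any of these 7. The other 2 calls, Scd2 (0.47) and Fads1 (0.28), were lost without 4 and 6 of the libraries. The citrate-cleaving enzyme Acly (0.39, adjusted p = 0.0943, called higher as deposited and, with an adjusted p of 0.0339, without P13 replicate 1), the carboxylase Acaca (0.18) and the elongase Elovl6 (0.12) were not called.

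In triglyceride synthesis the rises were led by acyltransferases. Of 12 genes tested 4 were higher and 1 lower, against 11.3% of all genes in each direction. The median was 0.15 (5 higher and 0 lower as deposited). Dgat2, which adds the last fatty acid, stood at 115, 99.6 and 114 at P10 and at 420, 438 and 484 at P13 (2.02, SE 0.11, adjusted p = 9.55e-06). Mogat1 (ENSMUSG00000012187.13, chr1:78510991-78538173 of GRCm38), which acylates monoacylglycerol, stood at 1.65, 1.14 and 1.42 and then at 12.9, 15.3 and 11.9 (2.58, SE 0.17, adjusted p = 2.03e-05). The groups lay apart for both genes, and P8 was at 105 to 127 for Dgat2 and 2.23 to 3.95 for Mogat1. Mogat1 thus had its lowest level of the sorted stages at P10 (P10 minus P8 -0.77, adjusted p = 0.0308), while Dgat2 did not differ detectably between P8 and P10 (-0.11, adjusted p = 0.617). Both calls held, whereas Dgat1 (0.49), the other enzyme of the last step, was lost without P10 replicate 1 or P13 replicate 2 and Fitm2 (0.36), which helps droplets form, without 4 of the libraries. Dgat1 was at 5.02 to 5.17 at P8 and 3.21 to 4.39 at P10, and did not differ detectably between P8 and P13 (P13 minus P8 0.16, adjusted p = 0.447). The phosphatase Lpin2 was lower (-0.52), but not in the deposited values. Agpat2 (-0.04) and Lpin1 (-0.06), of the middle steps, were not called, and Gpam, the acyltransferase of the first step, was at 0.431 to 0.704 in the 6 libraries, below the minimum.

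The coat of the lipid droplet showed 4 rises among 8 genes tested and 0 falls, with a median of 0.22. Plin2, the perilipin found on droplets of most tissues, stood at 16.6, 15.4 and 15.6 at P10 and at 57.9, 54.3 and 64.4 at P13 (1.82, SE 0.09, adjusted p = 6.09e-06). Cidea, which promotes droplet growth, went from 3.97, 3.13 and 3.64 to 18.4, 14.7 and 18.1 (1.98, SE 0.12, adjusted p = 1.3e-05). P8 levels of both, 15.5 to 17.8 for Plin2 and 4.31 to 5.09 for Cidea, were near those of P10, and these 2 calls held. Plin3 (0.29) and Hilpda (0.46) were lost without 5 and 6 of the libraries. Plin1, the perilipin of fat cells, was at 0.404 or below and Plin4 at 0.328 or below in each library.

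Among lipolysis genes the inhibitor rose most. Of 10 tested 3 were higher and 0 lower, against 11.3% of all genes in each direction. The median was 0.23 (6 higher as deposited), and all 3 rises held. G0s2 (ENSMUSG00000009633.3, chr1:193272161-193273217), which inhibits adipose triglyceride lipase, stood at 160, 143 and 188 at P10 and 883, 733 and 906 at P13 (2.36, SE 0.20, adjusted p = 7.71e-05), so that no P10 library came near a P13 library. Mgll, monoacylglycerol lipase, rose by 0.73, from 7.19 to 10.4 up to 13 to 16.1, and Pnpla8 by 0.59. The lipase that G0s2 inhibits, Pnpla2, was at 2.67 to 2.75 and 2.89 to 3.76 (0.23, adjusted p = 0.125, called higher as deposited), and hormone-sensitive lipase, Lipe, was not called (0.24).

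**Figure D3:**
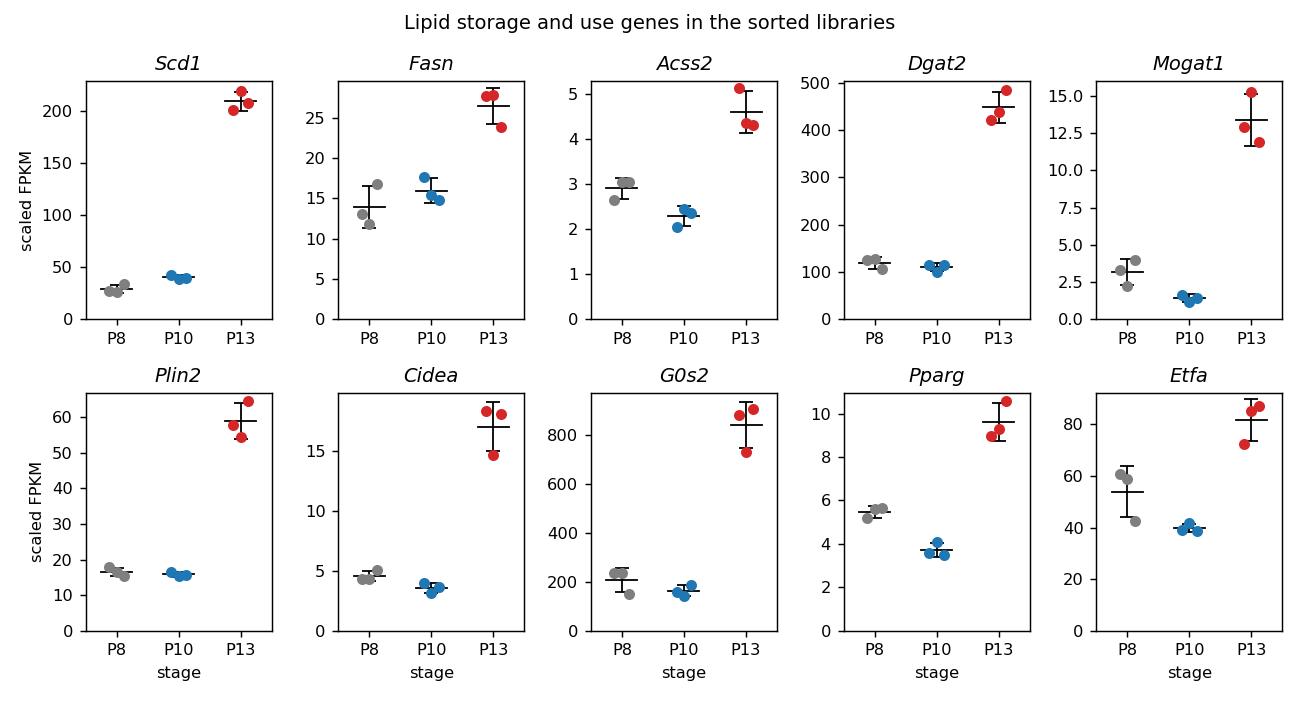
Scaled FPKM of 10 lipid genes in the 3 libraries of P8, P10 and P13 (points), with the mean and SD of each group (line and bars) and axes from 0. In each panel the P13 libraries lie above all P10 libraries, with Scd1 at 201 to 219 against 39.0 to 42.5.

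Of the 15 fatty acid uptake genes tested 1 was higher and 3 lower, a total near the 22.7% called among all genes, with a median of 0.00 (4 higher and 2 lower as deposited). Lpl, lipoprotein lipase, stood at 12, 11.7 and 12.5 at P10 and 3.57, 2.89 and 2.55 at P13 (-1.71, SE 0.12, adjusted p = 2.79e-05). It was at 1.92 to 2.58 at P8, so that the 3 P10 libraries were the high ones. Cav1, a coat protein of caveolae, fell by 0.80. The VLDL receptor Vldlr rose by 0.72, which was lost without P10 replicate 1. Cd36, the fatty acid translocase, was at 0.254 to 0.725 in the 6 libraries, and Fabp4 at 0.647 to 1.33 and 1.45 to 2.03 (0.50, adjusted p = 0.0719, called higher as deposited).

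Of the 22 fatty acid oxidation genes tested 10 were higher and 0 lower, with a median of 0.34 (16 higher as deposited), and 6 of the 10 held. Etfa, a subunit of the flavoprotein that takes electrons from acyl-CoA dehydrogenases, stood at 39.1, 41.6 and 38.6 at P10 and 72.4, 85.4 and 87.2 at P13 (1.02, SE 0.14, adjusted p = 0.00151), and its partner Etfb rose by 0.80. Cpt2 and Slc25a20, of the carnitine shuttle into mitochondria, rose by 0.77 and 0.68, the thiolase Acaa2 by 0.65 and Crat by 0.61. For Cpt2 the P10 libraries, at 2.88 to 3.41, were below P8 (4.53 to 4.94) as well as below P13 (5.32 to 6.56). Etfa at P8, at 42.5 to 60.6, also lay between P10 and P13. The calls of Acadvl, Acadl, Etfdh and Decr1 (0.34 to 0.52) did not hold. Cpt1a, the gate of the pathway, was not called (-0.05).

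Of the 21 regulators of fat storage tested 3 were higher and 1 lower, against 11.3% of all genes in each direction, with a median of -0.07 (5 higher and 1 lower as deposited), and the 4 calls held. The count of falls was 6 without P8 replicate 3, 5 with only the P10 and P13 libraries in the fit, and 3 with the replicate block or without P13 replicate 3. Pparg (ENSMUSG00000000440.12, chr6:115360951-115490399), the master factor of fat cell differentiation, stood at 3.57, 4.10 and 3.48 at P10 and 8.96, 9.30 and 10.6 at P13 (1.17, SE 0.10, adjusted p = 7.4e-05), with P8 between them at 5.17 to 5.67. Klf15 (0.56) and Stat5a (0.48), also factors that act in fat cells, rose. Klf15 was at 2.73 to 2.79 at P8, 1.59 to 2.17 at P10 and 2.83 to 3.34 at P13 (P13 minus P8 0.13, adjusted p = 0.521). Cebpb, an early factor of the same differentiation, fell from 66.6, 58.1 and 55.5 to 7.93, 7.94 and 8.46 (-2.74, SE 0.39, adjusted p = 0.0016). It was at 5.51 and 4.78 in 2 of the P8 libraries and 18.6 in the third. Srebf1, the factor that drives Scd1 and Fasn in liver, was at 16 to 21.3 and 19 to 23.8 (0.23, adjusted p = 0.257, called higher as deposited). Cebpa, a late factor of fat cell differentiation, was at 6.68, 4.34 and 5.06 at P10 and 2.97, 2.48 and 2.53 at P13 (-0.78, adjusted p = 0.218). At P8 Cebpa was at 0.891, 1.05 and 5.74. It was called lower with only the P10 and P13 libraries in the fit (adjusted p = 0.0135) and without P8 replicate 3 (adjusted p = 0.00652). Ppargc1a, a coactivator of oxidation genes, was at 0.184 to 0.416. Of 9 genes of fat cell identity at the FPKM minimum, Pparg and Klf15 were higher and Cebpb, Ebf1 and Lpl lower, and 11 of the 20 listed did not reach it.

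Hormone pathway genes that feed into storage gave 2 rises and 5 falls among 18 tested, with a median of -0.21 (4 and 3 as deposited). The falls numbered 8 without P8 replicate 3 and 8 with only the P10 and P13 libraries in the fit. Ghr, the growth hormone receptor, went from 5.88, 6.53 and 6.89 to 12.1, 11.3 and 10.2 (0.72, adjusted p = 0.00111), without overlap. Igf1, its main secreted product, rose by 0.79, which was lost without P10 replicate 3. Socs2 and Cish, feedback inhibitors of that receptor, fell by 1.5 and 1.47, Socs2 from 15.2, 18.9 and 18.5 to 5.65, 4.75 and 6.26. Jak2 (-0.55) and Socs3 (-0.64) were also lower, but not in the deposited values, Jak2 being lost without any 1 of the 6 libraries too, and the fifth fall was that of Igf2, described with the imprinted genes.

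Cholesterol synthesis split in both directions. Of 21 genes 4 were higher and 8 lower, with a median of 0.19 (8 higher and 3 lower as deposited). Msmo1, a demethylating oxidase of sterol synthesis, stood at 56.4, 66.3 and 55 at P10 and 29.3, 37.5 and 31.1 at P13 (-0.84, SE 0.12, adjusted p = 0.00134), without overlap, and P8 was at 34.3 to 37.1. Fdft1, squalene synthase, fell by 0.71, and both of these falls held. Hmgcs1, Sqle, Cyp51 and Stard4 were lower by 0.40 to 0.58 but not in the deposited values. Tm7sf2, Acat2, Mvk and Nsdhl, 4 other enzymes of sterol and isoprenoid synthesis, rose by 0.89, 0.83, 0.72 and 0.64, and all 4 held. Acat2 was at 15.7 to 16.6 at P10 and 28.2 to 30.8 at P13, with no library in between.

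In central metabolism a cytosolic source of NADPH, the reducing agent of fatty acid synthesis, rose. Idh1, cytosolic isocitrate dehydrogenase, went from 25.8, 27.3 and 25.3 to 58.8, 64.1 and 66.1 (1.24, SE 0.11, adjusted p = 9.25e-05), whereas its mitochondrial relative Idh2 fell by 0.63, which did not hold. At P8 Idh1 was at 32.9 to 41.5, above every P10 library (P10 minus P8 -0.52, adjusted p = 0.021). Of 6 pentose phosphate genes 3 were higher and 0 lower: Rpe (0.86) and Pgd (0.57) held, and G6pdx (0.43) was lost without 5 of the libraries. Rpe, Pgd and G6pdx did not differ detectably between P8 and P13 (P13 minus P8 0.49, 0.32 and 0.26, adjusted p = 0.0648, 0.0842 and 0.189). Malic enzyme, Me1, was not called (-0.24). Glycolysis had 5 rises and 5 falls of 20 (7 and 1 as deposited): the phosphofructokinases Pfkp (0.90), Pfkl (0.64) and Pfkm (0.55), with Ldhb (0.65) and Pdk2 (0.58), rose and held. Pfkp was also higher at P13 than at P8 (1.05, adjusted p = 0.00226), whereas Ldhb was not called (0.45, adjusted p = 0.0544). Gapdh, the 1 fall that held, fell by 0.66, from 985 to 1074 down to 559 to 734. The tricarboxylic acid cycle had 4 rises and 1 fall of 20 (10 and 0 as deposited), a total near the 22.7% called among all genes. Of 26 oxidative phosphorylation subunits 2 were higher and 1 lower (8 and 0 as deposited), a total below that share, and Sdhd (0.92) held. Sdhd did not differ detectably between P8 and P13 (P13 minus P8 0.46, adjusted p = 0.105). Of 12 genes of the mitochondrial genome 0 were called (1 higher as deposited, and 0 of them free of overlap between the groups).

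Cartilage matrix genes were called in both directions: of 26 tested 8 were higher and 6 lower, with a median of 0.15 (11 and 3 as deposited). Snorc, a small proteoglycan of chondrocytes listed as 3110079O15Rik, stood at 663, 717 and 668 at P10 and 2515, 1952 and 2364 at P13 (1.73, SE 0.20, adjusted p = 0.000518), and P8 was at 355 to 605. Epyc (epiphycan) rose from 1.59 to 2 up to 6.28 to 6.65 (1.40), Prelp by 1.01, Col27a1 by 0.92 and Matn4 by 0.85. Col9a1, of type IX collagen, rose by 0.49 and Scrg1 by 0.62, of which Col9a1 was lost without 4 of the libraries. Matn2, Cilp and Angptl7 fell by 1.02, 1.00 and 0.78 and held. Col2a1 stood at 6949, 5225 and 6646 and then at 3704, 3981 and 4280 (-0.64, adjusted p = 0.0317), but was not called as deposited and lost without 5 of the libraries. Acan, aggrecan, was at 171 to 252 and 108 to 142 (-0.78, adjusted p = 0.15), and Sox9, the chondrocyte master factor, at 180 to 219 and 182 to 251 (0.14, adjusted p = 0.496). Neither was called in the main fit. Acan was called lower with only the P10 and P13 libraries in the fit (adjusted p = 0.0196) and without P8 replicate 3 (adjusted p = 0.0191). Of 14 chondrocyte transcription factors Prrx1 was higher and Creb5 and Msx1 lower, a total near the 22.7% called among all genes. None of these 3 calls held.

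The elastic fibre list was mostly lower at P13. Of 24 tested 17 were lower and 2 higher, with a median of -0.81 (12 lower and 2 higher as deposited), and 12 of the 17 falls and both rises held. Mfap4, a protein of elastic microfibrils, stood at 717, 643 and 677 at P10 and 126, 122 and 154 at P13 (-2.34, SE 0.16, adjusted p = 2.4e-05). Fbln5, which guides elastin assembly, stood at 432, 411 and 420 and then at 115, 116 and 129 (-1.80, SE 0.14, adjusted p = 4.52e-05). P8 lay at 286 to 413 for Mfap4 and 266 to 375 for Fbln5, above P13 in both. Mfap5 followed another course, at 6.92 to 10 at P8, 54.1 to 65.9 at P10 and 7.2 to 11.1 at P13 (-2.54). The summed fibroblast markers, at 11580 to 13981 at P10 and 4478 to 5270 at P13, moved the same way. Eln, elastin itself, was at 25989 to 43948 and 21216 to 24096, a difference that was not called (-0.53, adjusted p = 0.127). The rises were Loxl4, a lysyl oxidase that cross-links matrix, from 32.7, 37.0 and 34.5 to 125, 113 and 85.7 (1.59), and Efemp2, fibulin-4, from 347 to 399 up to 659 to 822 (0.95).

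Small leucine-rich proteoglycans gave 4 rises and 6 falls of 13, with a median of -0.24 (5 and 5 as deposited). Omd, osteomodulin (ENSMUSG00000048368.8, chr13:49582462-49592822), stood at 9.61, 10.7 and 9.82 at P10 and 48.3, 53.5 and 56.4 at P13 (2.28, SE 0.15, adjusted p = 1.72e-05). Dcn, decorin, stood at 724, 763 and 749 and then at 185, 216 and 219 (-1.85), with P8 at 129 to 167, and Aspn fell by 1.83. Dcn, Aspn and Lum are also in the fibroblast list. Collagen processing had 1 rise and 9 falls of 25, with a median of -0.26 (2 and 6 as deposited). Among the falls were P4ha3, a prolyl hydroxylase subunit, from 2.65 to 3.72 down to 0.404 to 0.874 (-1.40), and Pcolce, which helps trim procollagen, from 141 to 153 down to 59.6 to 75.6 (-1.15), and 6 of the 9 held. Matrix proteases and their inhibitors had 2 rises and 10 falls of 18, with a median of -0.50 (5 and 6 as deposited). Timp4, a protease inhibitor, rose from 3.76 to 4.55 up to 14.4 to 16.7 (1.68), and the protease Htra4 by 1.45, while Adamts1 and Mmp14 fell by 1.07 and 1.02.

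Genes named for hypertrophy and mineralization had 4 rises and 0 falls among the 7 tested, and 11 of the 18 listed were below the FPKM minimum. Spp1, osteopontin, stood at 0.821, 1.54 and 1.16 at P10 and 10.2, 9.36 and 11.9 at P13 (2.41, SE 0.15, adjusted p = 1.68e-05). Col10a1, the collagen of hypertrophic chondrocytes, went from 4.19 to 4.86 up to 6.7 to 9.02 (0.71). Enpp1, which makes the mineralization inhibitor pyrophosphate, rose by 0.56. Mgp, matrix Gla protein, also an inhibitor, was at 1944 to 1967 and 2906 to 4625 (0.91), a call that was lost without 5 of the libraries. The definers of bone-forming cells on the list, such as Sp7, Ibsp and Bglap, did not reach the minimum. Chondroitin sulfate enzymes had 2 rises and 2 falls of 20 (3 and 0 as deposited), a total near the 22.7% called among all genes. Of these calls that of the sulfotransferase Chst12 (0.79) held. Secretory pathway genes had 3 rises and 7 falls of 24 (7 and 2 as deposited): the chaperone Hspa5 rose by 0.73, from 467 to 535 up to 771 to 859, while the stress factors Atf4 and Trib3 fell by 1.24 and 1.04.

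**Figure D4:**
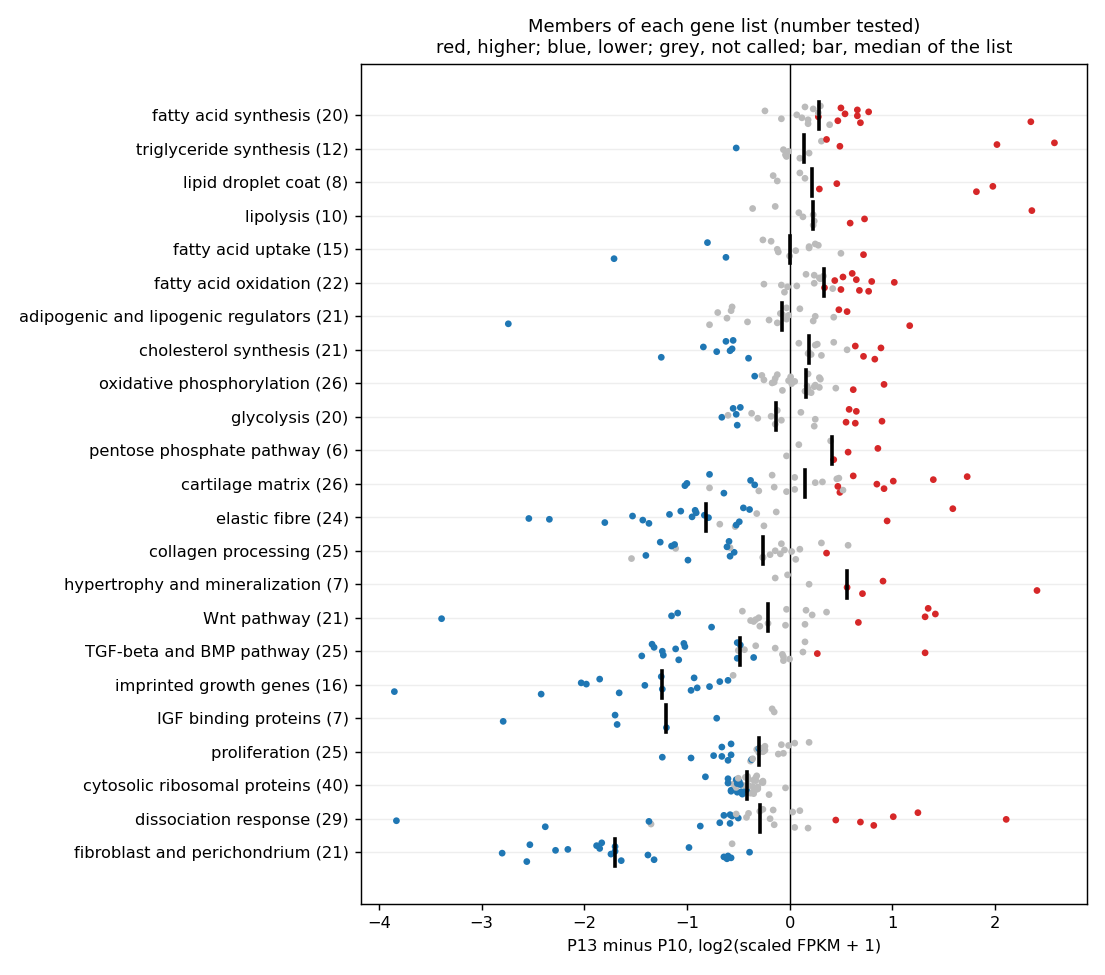
P13 minus P10 on the log2(scaled FPKM + 1) scale for each tested member (point) of 23 gene lists, with the number tested in parentheses, called members in red (higher) or blue (lower) and a bar at the median of the list. The fatty acid synthesis and oxidation lists have 9 and 10 rises and 0 falls, and the fibroblast, imprinted and elastic fibre medians lie at -1.70, -1.25 and -0.81.

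Wnt pathway genes were called in both directions, and 6 of the 8 calls were of secreted antagonists. Of 21 tested 4 were higher and 4 lower, against 11.3% of all genes in each direction. The median was -0.21 (5 rises and 3 falls as deposited), and without P8 replicate 3 there were 8 falls. Wif1, which binds Wnt proteins outside the cell, stood at 475, 507 and 489 at P10 and 1216, 1358 and 1357 at P13 (1.42, SE 0.15, adjusted p = 0.000263). Frzb rose from 21.3 to 22.5 up to 53.8 to 61.4 (1.32) and Notum, an enzyme that inactivates Wnt proteins, from 0.507 to 0.667 up to 2.61 to 3.28 (1.35). Sfrp2 (ENSMUSG00000027996.13, chr3:83766321-83774316), an antagonist of the same kind as Frzb, fell from 83.8, 76.9 and 82.5 to 6.18, 7.25 and 7.01 (-3.39, SE 0.09, adjusted p = 2.02e-07), with P8 at 25.9 to 30.3. Thus the 2 related antagonists moved in opposite directions with no overlap in either. Dkk2 and Sostdc1 fell by 1.15 and 1.09, and the receptor Fzd9 rose by 0.67. These 7 calls held, though Notum passed the FPKM minimum only through P13. The ligand Wnt5a (-0.76) was lost without 5 of the libraries and as deposited.

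TGF-beta and BMP genes gave 13 falls and 2 rises among 25 tested and a median of -0.48 (9 falls and 3 rises as deposited), and 8 of the falls held, which were also all those called without P10 replicate 1. Tgfbi, a matrix protein induced by TGF-beta, stood at 120, 115 and 127 at P10 and 42.5, 43.5 and 45.4 at P13 (-1.44, SE 0.08, adjusted p = 1.19e-05), with P8 at 128 to 142. The ligands Bmp2, Inhba and Tgfb2 fell by 1.23, 1.24 and 1.08, the BMP antagonists Chrdl2 and Nog by 1.32 and 1.11, and Id1, a BMP target, by 1.03. Gdf5, a joint and cartilage ligand of the BMP family, rose from 40.6, 39.9 and 45.9 to 97.6, 108 and 115 (1.32, SE 0.11, adjusted p = 9.25e-05). Smad7 (-1.34) was lost without 4 of the libraries.

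Imprinted growth genes, which are active from 1 parental copy and promote or restrain growth around birth, were lower nearly throughout. Of 16 tested 15 fell and 0 rose, with a median of -1.25 (13 lower as deposited), and 13 held. Cdkn1c, an inhibitor of the cell cycle, stood at 300, 303 and 334 at P10 and 72.6, 73.4 and 81.5 at P13 (-2.03, SE 0.09, adjusted p = 3.12e-06), with P8 at 224 to 240. Igf2 stood at 1367, 2168 and 1975 and then at 615, 716 and 419 (-1.66), with P8 at 1102 to 1325. H19, the noncoding neighbour of Igf2, fell from 198 to 301 down to 37 to 48.5 (-2.42), and Plagl1, a factor of the same network, from 16.4 to 17.3 down to 3.31 to 3.67 (-1.98). For these 4 genes every P8 value lay between those of P13 and P10, though for Igf2 the highest at P8 and the lowest at P10 were close. Dlk1 varied more, at 449, 189 and 390 at P10 and 20.6, 21.4 and 22.0 at P13 (-3.85, SE 0.52, adjusted p = 0.0012), and at 59.4 to 266 at P8. IGF binding proteins had 5 falls and 0 rises of 7, with a median of -1.20 (4 falls as deposited). Igfbp4 stood at 525, 458 and 546 at P10, 72.5, 65.7 and 80.1 at P13 (-2.79, SE 0.11, adjusted p = 1.26e-06) and 158 to 171 at P8. Igfbp6 (-1.70), Igfbp3 (-1.68) and the abundant Igfbp2 (-1.20) fell as well. The fibroblast marker sum was highest at P10 here too.

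Immediate early and heat shock genes, which respond to tissue dissociation among other stimuli, differed between the stages in both directions. Of 29 tested 6 were higher and 10 lower, with a median of -0.29 (8 and 4 as deposited). Btg2 stood at 92.0, 93.7 and 92.6 at P10 and 386, 402 and 424 at P13 (2.11, SE 0.10, adjusted p = 4.9e-06), and Hspb1, Klf6, Jun, Ier2 and Atf3 rose by 0.45 to 1.25. Fosl1 fell from 7.81, 5.75 and 7.52 to 0.48, 0.492 and 0.642 (-2.38, SE 0.12, adjusted p = 6.34e-06), against 0.537 to 0.704 at P8. It passed the FPKM minimum only through P10. Ier5 fell from 63.5 to 94.4 down to 3.74 to 5.51 (-3.83), and P8 was at 3.26 and 2.69 in 2 libraries and 25.2 in the third. Fos, the most abundant of the list, was at 8471 to 9207 and 9835 to 10254 and was not called (0.18, adjusted p = 0.352, called higher as deposited). The list summed to 13675 to 16010 at P8, 22402 to 23492 at P10 and 22469 to 24554 at P13.

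Several of the largest falls were of genes raised at P10 alone among the sorted stages. Errfi1 (ENSMUSG00000028967.10, chr4:150853919-150868892), a feedback inhibitor of the EGF receptor, stood at 165, 170 and 176 at P10 and 14, 15.7 and 13.2 at P13 (-3.48, SE 0.09, adjusted p = 1.71e-07), against 9.78, 11.1 and 10.3 at P8. Gfap, an intermediate filament of glia, was at 21.6, 19 and 21.7 and then at 0.73, 0.819 and 0.936 (-3.57), against 0.638 to 0.894 at P8. Rcan1, an inhibitor of calcineurin, was at 121, 89.7 and 107 and then at 7.43, 7.77 and 11.8 (-3.43), against 12.4 to 17 at P8. In each of these genes the 3 P10 libraries were several-fold above the other 6. Arf6, a small GTPase of membrane traffic, was at 36.6 to 37.5, 2.79 to 4.73 and, at P8, 2.82, 3.23 and 20 (-3.06). Replicate 3 of P8 stood above its 2 companions for Ier5, Arf6, Cebpb, Cebpa, Acan and Dlk1, which adds to the spread of these genes.

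**Figure D5:**
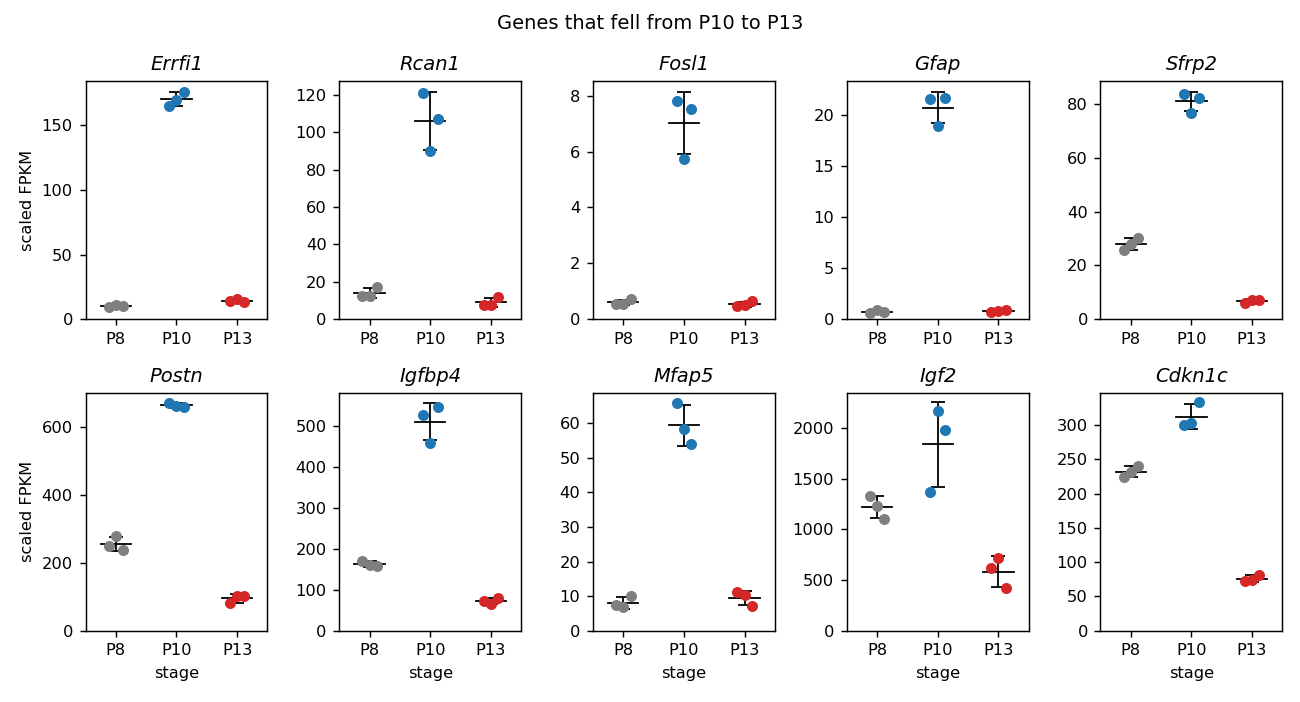
Scaled FPKM of 10 genes that fell from P10 to P13, in the 3 libraries of each sorted stage (points) with the mean and SD (line and bars) and axes from 0. Errfi1, Rcan1, Fosl1, Gfap and Mfap5 are raised in the P10 libraries only, and Sfrp2, Postn, Igfbp4, Igf2 and Cdkn1c have P8 means between those of P13 and P10.

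Antioxidant genes gave 6 rises and 5 falls of 27, with a median of -0.03 (12 and 2 as deposited), and 5 of the rises and 1 of the falls held. Cbr2, a carbonyl reductase, stood at 11.8, 18.2 and 16.1 at P10 and 82.0, 80.4 and 87.3 at P13 (2.38, SE 0.14, adjusted p = 1.19e-05). Nqo1, a quinone reductase, went from 5.93 to 6.27 up to 15.4 to 19.3 (1.38) and extracellular superoxide dismutase, Sod3, from 2.92 to 3.97 up to 9.11 to 11 (1.32). Osgin1, an oxidative stress response gene, rose at each step, from 1.9 to 2.32 at P8 to 7.61 to 8.93 at P10 and 19.8 to 24.1 at P13 (1.28). Prdx6 rose by 0.77, whereas Hmox1 (-0.51) and the factor Nfe2l2 (-0.35) were lower only when scaled.

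Proliferation genes gave 10 falls and 0 rises of 25, with a median of -0.30 (6 falls as deposited). Ccnd2, cyclin D2, stood at 198, 217 and 176 at P10 and 78.3, 74.3 and 97.5 at P13 (-1.24), Ccnd1 fell by 0.96 and Cdk1 by 0.74, from 26.8 to 31.3 down to 15.5 to 20. Mki67, a marker of cycling cells, was below the minimum, at 0.398 to 0.797 and 0.367 to 0.455. Of 40 cytosolic ribosomal protein genes 14 were lower and 0 higher, with a median of -0.41, but only Rps25 (-0.82) held and only 1 of the 40 was lower as deposited, while 2 were lower without P10 replicate 1 and 28 without P8 replicate 3. In the deposited values their median was -0.14.

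Among the other largest rises with a standard symbol, Msmp (ENSMUSG00000078719.2, chr4:43583216-43584494) stood at 5.96, 6.72 and 5.04 at P10 and 65.9, 54.5 and 54.6 at P13 (3.10, SE 0.12, adjusted p = 1.19e-06), with P8 between at 16 to 17.3. Clu, clusterin, an extracellular chaperone, stood at 29.0, 28.5 and 29.9 and then at 165, 146 and 173 (2.42, SE 0.09, adjusted p = 1.19e-06), and P8, at 25.8 to 28.7, was level with P10. Cdo1, which breaks down cysteine, rose from 1.55 to 3.55 up to 18.8 to 22.1 (2.62). The groups of these 3 genes did not overlap. Rnu2-10, a small nuclear RNA gene, rose by 2.91, and AL589742.2, listed at 0 in all P10 libraries, was at 13.1 on average at P13. The copy search described next took differences of at least 3 and matched only coding transcripts of genes that were tested. Whether reads of Rnu2-10 are shared with other genes was therefore not tested.

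Many of the most extreme differences fell on near-identical copies and are uncertain, because reads can be assigned to one copy or another. Of 30 called genes with a difference of at least 3, 13 had a transcript matching another coding gene at 90% identity or more over at least 80% of its length, 4 of 10 rises and 9 of 20 falls. Copies that are not coding, or that were not tested, could not be found by this search. Among the rises without a match were the small nuclear RNA genes Gm24018, Gm24596, Gm24497 and Gm25939. Eno1b was at 0 to 0.473 at P10 and 104 to 143 at P13, while the sum of Eno1 and Eno1b was 441 ± 39.6 and 435 ± 51.8 (SD, n = 3). At P8 Eno1b was at 38.1 to 46.1 and this sum at 397 ± 26.3. With Gm4735, a pseudogene that matches Eno1b at 99.8%, the sum was 441 ± 39.7 and 560 ± 58.5. The fall of Eno1 alone (-0.52) is therefore uncertain as well. Rps3a2 and Rps3a3 were at 727 to 806 and 535 to 610 at P10 and at 1.33 and 0.918 or below at P13, and the sum with their parent gene Rps3a1 was 2719 ± 76.3 and 1724 ± 58.2. At P8 the 2 copies were at 609 to 712 and 424 to 471. Rpl11 fell by 0.57, but with its copy Gm10036 it summed to 963 ± 78.5 and 1149 ± 135. BC002163, a copy of Ndufs5, was at 12.8 to 27.8 at P8, listed at 0 in all P10 libraries and at 34.1 to 41.6 at P13. Hist1h2aj (-3.18) matches Hist1h2ai at 99.7%, and its call was lost without P10 replicate 2. Hist1h2ad, of the same histone family, was at 22.5 to 36.3 at P10 and listed at 0 in all P13 libraries. BX813336.1, annotated as a miRNA gene, was at 10.6 to 33.3 at P10 and listed at 0 at P13, and its call was lost without 5 of the libraries.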

How the data were processed

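The 9 libraries of P8, P10 and P13 were grouped by the labels. The main table holds FPKM, a unit scaled for gene length and depth, computed by the authors and deposited for each library. STAR 2.4.2a and mm10 are named in the submitters' processing notes, whereas the program behind the FPKM and its gene models were not given in the sources used here. Depth came from another table: per the file headers it lists each library's read count and, in percent, the reads paired and aligned. Since FPKM hold no reads per gene, values have no counting interval.

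Each library was divided by its median-of-ratios factor over these 9 libraries. Then log2(scaled FPKM + 1) was fitted with 3 group means in limma 3.58.1 (R 4.3.3), moderated along the trend of variance with mean, 6 residual degrees of freedom, two-sided tests and Benjamini-Hochberg adjustment over 9879 genes, and the median SE was 0.143. The procedure was tested on simulated data. The members, the 44 gene lists and the tests were chosen with earlier results of these data known. Genes were named by a rule: among called genes without overlap, the 12 that rose most and the 12 that fell most, with a conventional symbol and at least 10 scaled FPKM on average in the higher group, then up to 3 called genes of each list, and a set of lipid, cartilage and growth genes whatever their values. Some genes that this rule names are not reported here. Further list members are examples chosen after their values were seen. Alternatives were other scalings, filters, a pseudocount of 0.1, other sample sets, a replicate block and leaving out each library. Gene coordinates are from GENCODE M21, which held 98.9% of identifiers. Copies were searched with blastn 2.17.0, and plots were drawn with matplotlib 3.10.9.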

Additional observations from a re-analysis of the deposited data

How the results depend on the processing

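The count of genes called, 2240, lay between 1768 and 3016 under the 9 alternatives that kept all 6 P10 and P13 libraries, and without 1 library between 1386 and 2885. The highest of these, 2885, left out P8 replicate 3, an alternative chosen after seeing the data, and the lowest, 1386, P10 replicate 1. Rises ran from 666 to 1359 and falls from 720 to 1526 without 1 library: the lowest, 666 and 720, came without P10 replicate 1, and rises were 740 without P13 replicate 3. The deposited scaling gave 2438 rises and 578 falls. Directions that changed were all of genes not called: Acaca ranged from -0.01 to 0.44 and Agpat2 from -0.11 to 0.04 without 1 library, and as deposited Agpat2 was at 0.20 and Lpin1 at 0.09. Of the 133 named genes 113 kept direction and side of the threshold as deposited, 133 with upper quartile scaling and 114 to 121 without 1 P10 or P13 library. The replicate numbers were not treated as pairs. Correlations of deviations between P10 and P13 libraries of the same number were -0.012, 0.019 and 0.179. Those between P8 and P10 were -0.046, 0.125 and 0.14, and those between P8 and P13 were 0.237, 0.125 and 0.109. Correlations between libraries of different numbers ran from -0.218 to 0.17. In 11 of 18 pairings of a library with the 3 libraries of another group its own number matched best. Whether libraries of the same number share a source was not tested. With the replicate block 2194 genes were called, 1040 higher and 1154 lower. The cause of these shifts was not tested. Without counts per gene, the precision of low values cannot be stated.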
